A study of Mus musculus with 32 samples.

Results

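Glucose uptake, glycolysis and glycogen turnover were followed in mouse skeletal muscle through 38 genes, listed by symbol, of the 54838 genes in the count table, and all 38 passed the filter on low counts in each comparison. The genes were grouped by role into 9 sets, namely 3 glucose transporters, 2 hexokinases, 7 genes of the upper and 7 of the lower part of glycolysis, 3 enzymes of fructose-2,6-bisphosphate, 4 genes of lactate, 4 of glycogen breakdown, 6 of glycogen synthesis and 2 side branches. RNA came from the tibialis anterior (TA) according to the methods of the study, whereas the labels say skeletal muscle only. There were 8 groups of 4 libraries, from wild-type (WT) littermates and from *Mtm1* KO (*Mtm1*-/y) male mice, harvested on postnatal day 1, 14, 21 or 35 (P1, P14, P21 and P35). The KO carries a germline deletion of *Mtm1* exon 4 and models X-linked myotubular myopathy, all mice were on the C57BL6/J background after rederivation from 129S2PAS, and food was moved to the cage floor and a gel diet could be added as mice weakened.

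Skeletal muscle takes up blood glucose through membrane transporters, and hexokinase traps it as glucose 6-phosphate. This sugar is either stored as glycogen or split by glycolysis into pyruvate, which is reduced to lactate or burnt in mitochondria, while glycogen phosphorylase returns stored sugar to the same route when a fibre contracts. Many of these steps are encoded by paralogous genes, of which one form is typical of mature muscle (*Slc2a4*, *Hk2*, *Pfkm*, *Pgam2*, *Eno3*, *Pygm*) and another is found in most tissues or in the brain. Fast fibres, the main fibre type of the TA, are known for high glycolytic capacity.

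The upstream sequences of a pair of such paralogues are shown because the muscle form fell in KO at P35 while no change was called for its partner. They are bases before the RefSeq start (GRCm38.p6), without any that GENCODE places inside the gene, 5′ to 3′ on the strand of the gene, for phosphoglycerate mutase (*Pgam2* at chr11:5803797-5804046 on the minus strand, *Pgam1* at chr19:41911621-41911870 on the plus strand) and glycogen phosphorylase (*Pygm* at chr19:6384158-6384398 and *Pygb* at chr2:150786546-150786734, both plus). Capitals mark matches, on either strand, to 7 motifs. These were the E-box CAGCTG of muscle factors, the E-box CACGTG of other factors, the hypoxia core ACGTG (part of the latter E-box), the CCAAT box, the GC box GGGCGG, the TATA box TATAAA and the MEF2 consensus.
Pgam2: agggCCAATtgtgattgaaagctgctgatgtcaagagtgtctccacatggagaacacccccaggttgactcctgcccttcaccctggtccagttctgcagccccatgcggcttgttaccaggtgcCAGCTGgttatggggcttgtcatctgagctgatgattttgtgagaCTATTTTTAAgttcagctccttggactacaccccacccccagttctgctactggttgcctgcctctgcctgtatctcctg
Pgam1: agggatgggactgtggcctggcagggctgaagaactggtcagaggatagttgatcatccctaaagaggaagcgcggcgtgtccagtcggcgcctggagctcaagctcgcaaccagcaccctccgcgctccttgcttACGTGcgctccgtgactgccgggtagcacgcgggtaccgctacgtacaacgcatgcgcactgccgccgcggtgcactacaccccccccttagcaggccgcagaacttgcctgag
Pygm: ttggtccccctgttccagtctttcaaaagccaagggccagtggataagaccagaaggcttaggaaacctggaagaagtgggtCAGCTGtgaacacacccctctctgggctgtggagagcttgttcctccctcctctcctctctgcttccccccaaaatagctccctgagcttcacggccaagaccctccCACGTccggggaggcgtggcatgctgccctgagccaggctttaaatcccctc
Pygb: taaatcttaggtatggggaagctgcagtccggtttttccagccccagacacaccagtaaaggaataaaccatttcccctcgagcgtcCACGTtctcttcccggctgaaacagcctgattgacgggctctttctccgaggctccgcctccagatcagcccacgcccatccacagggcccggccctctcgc

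The *Pgam2* stretch held 1 CAGCTG, 1 CCAAT and 1 MEF2 match with 1 CpG in 250 bases, and the *Pgam1* stretch held 1 ACGTG and 22 CpG in the same length. The *Pygm* stretch of 241 bases held 1 CAGCTG, 1 ACGTG and 4 CpG, against 1 ACGTG and 11 CpG in 189 bases for *Pygb*. RefSeq gave 51 windows of 250 bases for 35 of the 38 members, with several starts for some genes, and *Slc2a3*, *Slc2a4* and *Gpd1* had none here. Of the 22 windows of the members that fell at P35, 27.3% held CAGCTG and 13.6% a MEF2 match, against 17.2% and 0.0% of the 29 windows of the other members and 13.0% and 2.92% of all 32851 windows. The order was the other way round for ACGTG, with 27.3% of the windows of fallen members, 48.3% of the others and 16.6% of all windows. GGGCGG was found in 36.4%, 55.2% and 32.7%, CCAAT in 40.9%, 34.5% and 33.8%, CACGTG in 4.55%, 17.2% and 6.02%, and TATAAA in 9.09%, 3.45% and 12.4% of the same sets. The median GC content was 54.4% for the fallen members, 62.8% for the others and 52.4% for all windows. Shares are over windows, not genes: the 22 windows came from 16 genes and the 29 from 19, and the MEF2 share of the fallen members was 3 windows. These are matches of letters in short windows and were not tested.

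Library totals were 49321035 to 85631408 counts. *Mtm1* itself was at 5.26 to 6.02 CPM in WT and 2.32 to 3.91 CPM in KO at P1, and at 20.7 to 24.9 CPM in WT and 3.32 to 3.95 CPM in KO at P35, without overlap. CPM are counts scaled to library totals of 1e6 with TMM factors from all 32 libraries, and levels compared between genes are CPM per kilobase of exon. All 6 skeletal muscle markers (*Acta1*, *Ckm*, *Des*, *Ttn*, *Mb*, *Ryr1*) were above 1 CPM in every library. The 6 genes of the keratinocyte list summed to 1766 to 6535 CPM at P1 and to at most 6.39 CPM from P14 on. Cartilage genes summed to 313 to 649 CPM at P1 and at most 147 CPM afterwards. *Xist* was at 0.366 CPM or less and *Ddx3y* at 50.9 to 142 CPM in all 32 libraries. Whole muscle was sequenced, so fewer cells of a type and less RNA per cell cannot be told apart. The count of a member can also include reads shared with near-identical copies. Expected counts were not whole in 31 of 32 libraries for *Gapdh*, *Pgk1* and *Pgam1*, in all 32 for *Eno1* and *Pkm*, in 17 for *Gpi1* and in 13 for *Pfkm*, and their values are less certain.

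The members together took 1.98% to 2.34% of all counts in WT libraries of P1. This share was 3.40% to 4.58% in WT libraries of P14, 4.47% to 5.67% in those of P21 and 4.49% to 5.46% in those of P35. KO libraries held 1.56% to 2.46% at P1 and 2.99% to 4.38% at P14, so both genotypes overlapped at these ages. At P21 the share was 4.28% to 4.92% in KO, and at P35 it was 3.49% to 4.70%, with a mean of 4.18% ± 0.51 against 5.11% ± 0.44 in WT (SD, n=4). The ranges of this share overlapped at each of the 4 ages, and 3 of 4 KO libraries of P35 lay within the range of WT P14. On the TMM-scaled scale used for all levels that follow, the members summed to 58802 to 74469 CPM in WT and 33277 to 48945 CPM in KO at P35, without overlap. At P21 these sums were 53254 to 74435 CPM in WT and 48634 to 54589 CPM in KO, which overlapped.

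**Figure D1:**
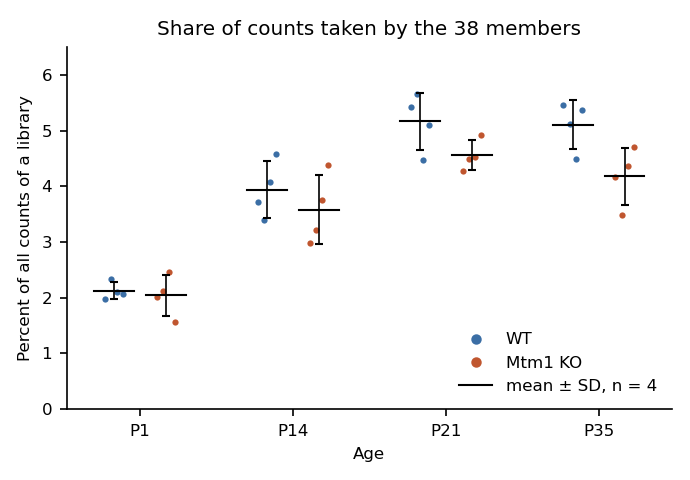
Percent of all counts of a library that fell on the 38 members (vertical axis, not scaled by TMM), by age (P1 to P35) and genotype. Points are libraries and lines the mean ± SD of 4; WT means rose from 2.12% at P1 to 5.11% at P35, and the KO mean at P35 was 4.18%.

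Per kilobase, the highest level in WT at P35 was that of *Aldoa*, the muscle aldolase, at 5960 ± 723 CPM per kb (SD, n=4), followed by *Eno3* (3891 ± 350), *Pgam2* (2781 ± 269) and *Gapdh* (2094 ± 162). The libraries of these first 3 genes did not overlap with those of the next gene in the order, whereas *Gapdh* overlapped with *Pygm* (1830 ± 288). The middle of the order was crowded: *Ldha*, *Tpi1*, *Pkm* and *Pgk1* lay between 1145 and 879 CPM per kb and overlapped with their neighbours. Membrane transport and the first phosphorylation were far lower in level, with 177 CPM per kb for *Slc2a4* and 88.5 for *Hk2*, and the lowest were *Slc2a3* at 0.388 and *Aldoc* at 0.110 CPM per kb. In KO at P35 the same 4 genes led the order, at 3661, 2243, 1523 and 1327 CPM per kb. The order also depends on the gene length used, which overlap of libraries does not cover. All exons came to 4133 bases for *Gapdh* and 5001 for *Pkm*, but the longest transcript to 3289 and 2432. For *Pgam2* both lengths were 840 bases. The order was not recomputed with the longest transcript.

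The course of the genes in WT muscle was taken from the steps between neighbouring ages, where age cannot be told apart from other differences between the harvests. Between P1 and P14, 28 of the 38 members rose and 5 fell in WT (edgeR, adjusted *P*-value under 0.01 and a change of more than 1.5-fold), whereas 24.7% of the 17435 genes tested rose and 30.4% fell. The median log2 fold change was 1.57 for the members and -0.08 for all genes tested. The steepest rise was in phosphorylase kinase, the enzyme that switches on glycogen phosphorylase: *Phkg1*, its catalytic subunit, went from 17.9, 23.1, 21.2 and 18.4 CPM at P1 to 391, 358, 462 and 546 CPM at P14 (log2 fold change 4.44 ± 0.16, SE). *Phka1*, its regulatory subunit in muscle, rose by 3.45 ± 0.27 and *Gpd1*, which links glycolysis to glycerol 3-phosphate, by 2.75 ± 0.13. The members that fell were *Aldoc* (-2.59 ± 0.24), *Slc2a3* (-1.29 ± 0.16), *Pygb* (-1.28 ± 0.09), *Pgam1* (-1.16 ± 0.10) and *Pfkp* (-0.64 ± 0.07), forms best known from brain and other tissues. The keratinocyte and cartilage genes that were high at P1 moved with this step, and their part in it was not tested. Scaling by library totals moved the median of all genes in this step from -0.08 to -0.85 and that of the members from 1.57 to 0.78.

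Later steps were smaller. From P14 to P21, 7 members rose in WT, with *Hk2* (log2 fold change 1.40 ± 0.15, SE), *Gbe1*, the glycogen branching enzyme (1.18 ± 0.12), *Slc16a1* (0.97 ± 0.12), *Slc16a3* (0.91 ± 0.17), *Slc2a4* (0.90 ± 0.14), *Gys1*, muscle glycogen synthase (0.89 ± 0.11), and *Ldhb* (0.72 ± 0.15). *Fbp2* (-1.11 ± 0.23) and *Eno1* (-0.88 ± 0.10) fell, against 2.93% of all genes tested that rose and 2.6% that fell. The number of calls in this step was 14 without WT P14 replicate 4 and 5 without replicate 1, 2 or 3 of that group. From P21 to P35, only *Eno1* was called, and it fell again (-0.74 ± 0.07), when 1.4% of all genes tested rose and 1.05% fell. No member was called higher in edgeR in that step, 4 were higher at an unadjusted *P*-value under 0.05, and DESeq2 called 1 member higher (*Slc2a3*) and 2 lower (*Eno1*, *Pfkp*). Of all genes tested, 17.7% were higher and 16.7% lower at that unadjusted level, and DESeq2 called 2.96% higher and 2.7% lower. Erythroid genes moved with both steps: 6 of 7 rose from P14 to P21 (median log2 fold change 2.78, summed level 444 to 759 CPM at P14 and 3179 to 4357 CPM at P21), and 7 of 7 fell from P21 to P35 (median -3.49, 190 to 584 CPM at P35). Their part in these steps was not tested.

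KO and WT were next compared within each age. At P1 no member was called in edgeR in either direction, against 0.0442% of 18100 genes tested higher and 0.0% lower, with 2 members higher and 2 lower at an unadjusted *P*-value under 0.05 (6.07% and 4.86% of all genes) and 1 called lower by DESeq2 (0.124% of all genes, and 0.404% higher). That gene was *Fbp2*, the muscle fructose-1,6-bisphosphatase, at 31.4, 39.0, 27.2 and 25.9 CPM in WT, against 17.0, 20.5, 22.2 and 14.7 CPM in KO (log2 fold change -0.72 ± 0.16, SE, adjusted *P*-value 0.132 in edgeR). The KO libraries of *Fbp2* all lay below those of WT, as did those of *Pfkfb4*, which were at 5.24 to 7.06 CPM against 8.35 to 8.99 CPM. KO lay below WT without overlap for 4.78% of all genes tested at P1 and above for 3.85%, and 0 members lay above.

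At P14 no member was called in edgeR or DESeq2, against 0.0254% of 15728 genes tested higher and 0.00636% lower, and 2 members were higher and 1 lower at an unadjusted *P*-value under 0.05 (4.02% and 2.79% of all genes). DESeq2 called 0.212% of all genes higher and 0.0723% lower. The median log2 fold change was -0.16 for the members and 0.00 for all genes. *Phka1* had the lowest value, at 297, 278, 495 and 611 CPM in WT, against 117, 169, 313 and 488 CPM in KO (log2 fold change -0.63 ± 0.44, SE, adjusted *P*-value 0.885 in edgeR). Libraries with the same replicate number deviated together at this age, with KO below WT in all 4 pairs, and edgeR with replicate number as block called *Phka1* lower (log2 fold change -0.76, adjusted *P*-value 0.0085), the 1 member so called, when 0.197% of all genes were called lower and 0.426% higher with the block. The labels do not state such pairs, which were inferred from these same counts. Within the same pairs, KO was below WT in all 4 for 17 of the 38 members, against 13.8% of all genes tested. It was above in all 4 for 2 members, *Slc16a1* and *Fbp2*, against 15.4%. The 17 included *Pfkm*, *Aldoa*, *Gapdh*, *Pgk1*, *Pgam2*, *Eno3*, *Ldha*, *Pygm*, *Phkg1* and *Gpd1*, and these signs were counted after the values had been seen and carry no test. *Slc16a1*, the proton-linked lactate carrier MCT1, was the 1 member whose KO libraries all lay above WT (59.3 to 60.3 against 46.8 to 54.8 CPM), as was the case for 3.28% of all genes, and no member lay below without overlap, against 1.56% of all genes.

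At P21, 3 of the 38 members fell in KO and no member rose, against 1.5% of the 15179 genes tested that fell and 3.18% that rose. They were *Gpd1*, the cytosolic glycerol 3-phosphate dehydrogenase, *Pgam2* and *Slc16a3*, the carrier MCT4 that exports lactate from fast fibres. DESeq2 called these and *Pfkfb1* lower (2.67% of all genes) and no member higher (3.96%). At an unadjusted *P*-value under 0.05, edgeR gave 24 members lower and 3 higher, against 16.3% and 18.9% of all genes. The median log2 fold change of the members was -0.33, against 0.01 for all genes tested. KO lay below WT without overlap for 11 of the 38 members and for 11.0% of all genes, and above for 1 member, *Hk1*, and 13.7% of all genes. The edgeR count was 1 without WT P21 replicate 1 or 2 or without KO P21 replicate 2 or 4, and 8 without WT P21 replicate 3. *Gpd1* was called in all 8 fits that left out a library, *Pgam2* in 4 and *Slc16a3* in 1. When libraries were scaled by their totals, the median of the members was -0.13 and that of all genes 0.20. *Gpd1* alone was then called lower and *Hk1* higher, when 0.692% of all genes were called lower and 6.93% higher, and the calls of *Pgam2* and *Slc16a3* were lost. Other markers moved at P21 too, with 2 of 4 satellite cell genes lower (summed level 18.9 to 30.1 CPM in WT against 9.12 to 21.0 CPM in KO) and 2 of 6 macrophage genes higher (74.7 to 86.2 against 81.2 to 106 CPM). Embryonic and neonatal fibre genes summed to 2578 to 9346 CPM in WT and 409 to 671 CPM in KO, with 1 of 4 called in each direction. All 10 fast fibre genes had a log2 fold change below 0 (median -0.28), and 1 was called lower. Of 8 slow fibre genes, 7 were above 0 and 1 below (median 0.84), and none was called. Slow fibre genes summed to 559 to 1410 CPM in WT and 950 to 1440 CPM in KO, which overlapped. Mitochondrially encoded genes took 9.75% to 12.0% of counts in WT and 8.21% to 8.78% in KO. The part of these shifts in the P21 values was not tested.

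*Gpd1* (ENSMUSG00000023019, chr15:99717515-99725005 in GRCm38, plus strand) was at 1312, 1072, 900 and 1122 CPM in WT, against 550, 559, 644 and 615 CPM in KO at P21. The genotypes did not overlap, and the log2 fold change was -0.88 ± 0.11 (SE, n=4, adjusted *P*-value 0.00105 in edgeR). *Pgam2* (ENSMUSG00000020475, chr11:5801640-5803733, minus strand) was at 2696, 2655, 1946 and 2340 CPM in WT, against 1358, 1518, 1551 and 1541 CPM in KO (log2 fold change -0.68 ± 0.11, adjusted *P*-value 0.00313). *Slc16a3* (ENSMUSG00000025161, chr11:120948480-120960868, plus strand) stood at 666, 606, 413 and 541 CPM in WT, with replicate 3 lowest, and at 367, 331, 341 and 331 CPM in KO (-0.69 ± 0.12, adjusted *P*-value 0.00522). Each of the 3 genes was lower in every KO library than in any WT library.

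At P35, 19 of the 38 members fell in KO and none rose, whereas 7.52% of the 15595 genes tested fell and 8.49% rose. The median log2 fold change was -0.64 for the members and 0.04 for all genes tested. DESeq2 called 23 members lower and 1 higher (*Slc2a1*), against 8.44% and 9.18% of all genes. At an unadjusted *P*-value under 0.05, edgeR gave 27 lower and 4 higher, against 24.1% and 26.2% of all genes. KO lay below WT without overlap for 24 members, against 20.4% of all genes tested, and above for 2, *Slc2a1* and *Pfkl*, against 19.2%. By role, 2 of 3 transporters, 1 of 2 hexokinases, 2 of 7 genes of upper and 4 of 7 of lower glycolysis, 2 of 3 enzymes of fructose-2,6-bisphosphate, 1 of 4 lactate genes, 3 of 4 of glycogen breakdown, 3 of 6 of glycogen synthesis and 1 of 2 side branches fell. When libraries were scaled by their totals in place of TMM, the median of all genes moved to 0.44 and that of the members to -0.23, and 5 members were called lower (*Gpd1*, *Slc16a3*, *Pfkfb1*, *Phka1*, *Ppp1r3a*) and 5 higher (*Slc2a1*, *Hk1*, *Pfkl*, *Pfkp*, *Pygb*). With that scaling 2.09% of all genes were called lower and 27.9% higher. The count of calls was 11 without WT P35 replicate 2, 10 without WT P35 replicate 4 and 11 without KO P35 replicate 3. In the 8 fits that left out a library, 9 members were called each time, namely *Slc2a4*, *Hk2*, *Pfkfb1*, *Pgam2*, *Slc16a3*, *Pygm*, *Phka1*, *Ppp1r3a* and *Gpd1*. *Eno3* was called in 7 of the 8 fits, *Gys1* and *Pgk1* in 5, *Phkg1* in 4, *Slc2a3* and *Pfkfb4* in 3, *Tpi1*, *Pfkm* and *Gapdh* in 2 and *Gbe1* in 1.

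**Figure D2:**
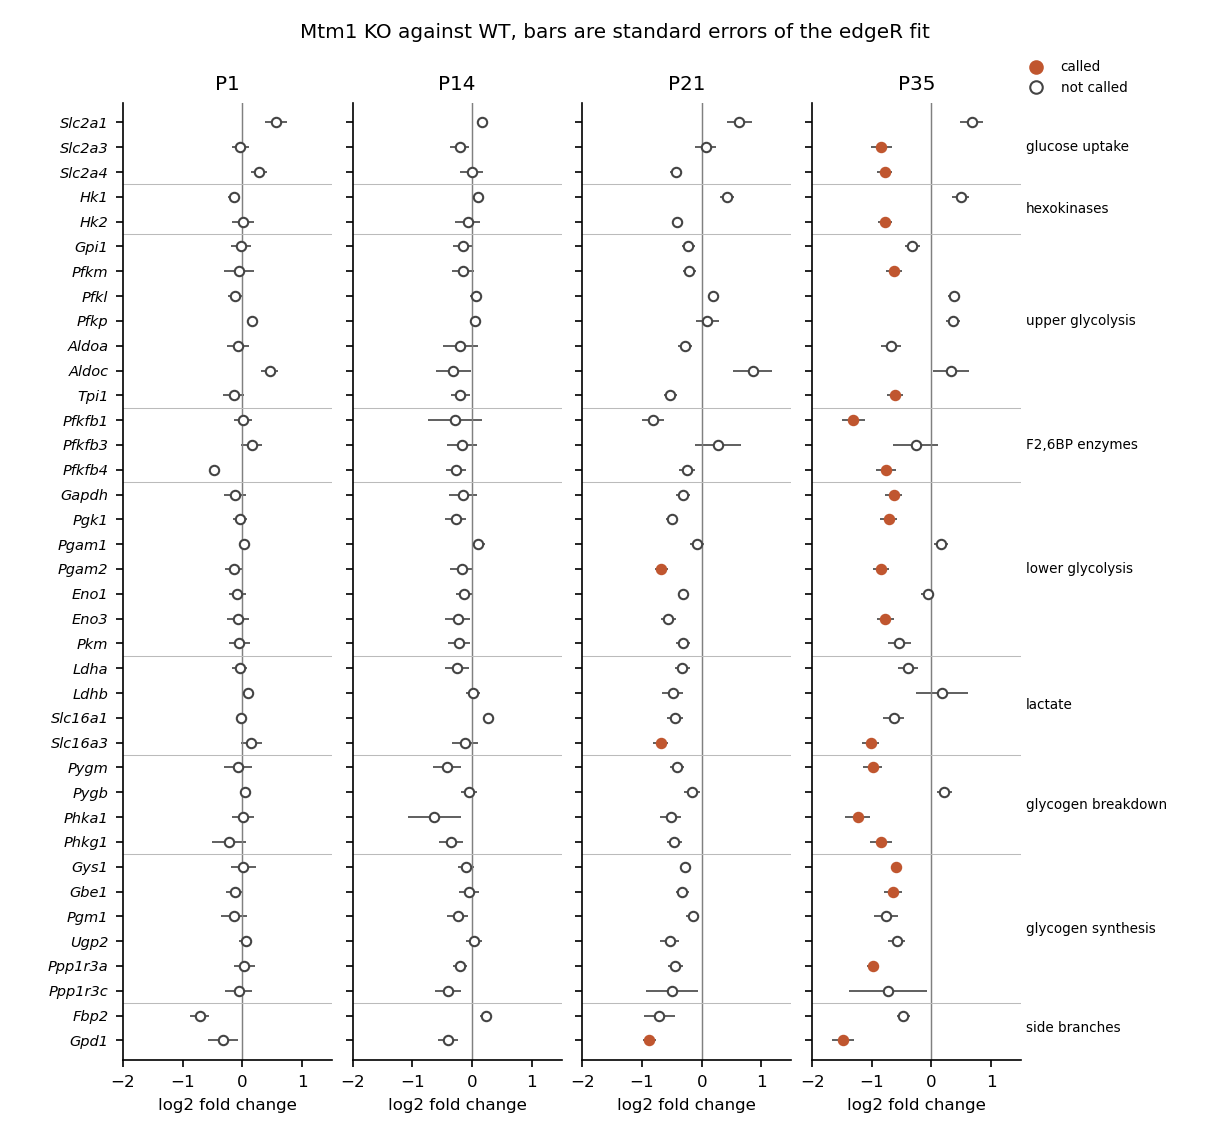
Log2 fold change of KO against WT (horizontal axes) for the 38 members, ordered by role, at P1, P14, P21 and P35, with the standard error of the edgeR fit as a bar. Filled points were called, 0 at P1 and P14, 3 at P21 and 19 at P35, and all filled points lie to the left of 0.

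Among the transporters, *Slc2a4* (ENSMUSG00000018566, chr11:69942539-69948188, minus strand) encodes GLUT4, which insulin and contraction bring to the fibre surface. Its level at P35 was 684, 535, 618 and 630 CPM in WT, against 395, 398, 289 and 329 CPM in KO, so that the highest KO library lay under the lowest WT library (log2 fold change -0.78 ± 0.13, SE, adjusted *P*-value 0.00124 in edgeR). The neuronal transporter gene *Slc2a3* was low throughout, at 3.38, 2.598, 2.28 and 2.98 CPM in WT, against 1.65, 1.45, 1.76 and 1.30 CPM in KO, and fell as well (-0.84 ± 0.18, adjusted *P*-value 0.00473). *Slc2a1*, which encodes the widespread transporter GLUT1, was at 12.8, 6.998, 11.1 and 7.29 CPM in WT, against 12.9, 15.7, 15.96 and 15.2 CPM in KO. Its log2 fold change was 0.67 ± 0.19 with an adjusted *P*-value of 0.0198, outside the threshold. Per kilobase, *Slc2a4* made up 98.2% to 98.9% of the pair in WT at P35 and 94.8% to 96.9% in KO.

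The hexokinase typical of insulin-responsive muscle, *Hk2* (ENSMUSG00000000628, chr6:82725025-82774454, minus strand), fell from 561, 440, 577 and 537 CPM in WT to 343, 295, 259 and 317 CPM in KO at P35 (log2 fold change -0.77 ± 0.12, SE, adjusted *P*-value 9e-04 in edgeR). *Hk1*, the form bound to mitochondria in most tissues, was at 13.7, 17.1, 18.2 and 19.3 CPM in WT, against 18.6, 21.9, 28.7 and 25.1 CPM in KO (0.49 ± 0.15, adjusted *P*-value 0.0239, not called). The share of *Hk2* in the pair was 97.3% to 98.3% in WT and 92.8% to 96.4% in KO, per kilobase, and these ranges did not overlap. At P1 it had been 62.1% to 69.4% in WT. The share depends on the length used: *Hk1* had 8532 bases of exon and 4278 in its longest transcript, against 5969 and 5513 for *Hk2*. With the longest transcripts the share of *Hk2* would be lower. The difference between paralogues was not tested here or below, and the shares are a description.

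In upper glycolysis, the muscle phosphofructokinase *Pfkm*, the committed step, and *Tpi1*, the triose phosphate isomerase, fell at P35. *Pfkm* was at 4770, 4181, 3979 and 4775 CPM in WT, against 2880, 2248, 2992 and 3189 CPM in KO (log2 fold change -0.62 ± 0.14, SE, adjusted *P*-value 0.00563 in edgeR). *Tpi1* was at 3226, 3227, 2618 and 3351 CPM in WT, with replicate 3 lowest, and 2008, 1590, 2071 and 2313 CPM in KO (-0.61 ± 0.14, adjusted *P*-value 0.00654). The other subunits of phosphofructokinase, *Pfkl* and *Pfkp*, were not called, with log2 fold changes of 0.38 ± 0.10 and 0.37 ± 0.12 and adjusted *P*-values of 0.0115 and 0.0304. *Aldoa* lay just outside the threshold, with 18970, 17230, 14420 and 18780 CPM in WT, against 10860, 8274, 10860 and 12640 CPM in KO, without overlap (-0.68 ± 0.17, adjusted *P*-value 0.0105). *Gpi1*, which interconverts the hexose phosphates, had a log2 fold change of -0.32 ± 0.12 and *Aldoc* of 0.33 ± 0.30, neither called.

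The bifunctional enzymes that make and remove fructose-2,6-bisphosphate, the activator of phosphofructokinase, were all below WT in their fitted values, and 2 of the 3 fell. *Pfkfb1* (ENSMUSG00000025271, chrX:150588229-150643878, plus strand), the form of liver and muscle, had risen in WT from 2.10 to 2.69 CPM at P1 to 44.4, 49.9, 66.8 and 57.2 CPM at P35, against 29.9, 19.1, 16.03 and 21.8 CPM in KO at P35 (log2 fold change -1.31 ± 0.19, SE, adjusted *P*-value 8.23e-04 in edgeR). *Pfkfb4* fell by less, from 85.3, 62.6, 57.4 and 65.9 CPM to 41.1, 27.7, 41.8 and 46.1 CPM (-0.77 ± 0.17, adjusted *P*-value 0.00579). *Pfkfb3* varied widely within groups, at 45.9, 169, 50.1 and 87.1 CPM in WT, against 91.8, 70.1, 55.2 and 71.1 CPM in KO, and was not called (-0.26 ± 0.38, adjusted *P*-value 0.602).

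Of lower glycolysis, *Gapdh*, *Pgk1*, *Pgam2* and *Eno3* fell at P35. *Gapdh*, the dehydrogenase often used as a reference transcript, was at 8606, 8788, 7803 and 9428 CPM in WT, against 5355, 4374, 5733 and 6471 CPM in KO (log2 fold change -0.63 ± 0.14, SE, adjusted *P*-value 0.00698 in edgeR). *Pgk1*, which makes the first ATP of the route, was at 2004, 2010, 1670 and 2206 CPM in WT, against 1287, 907, 1206 and 1324 CPM in KO (-0.72 ± 0.14, adjusted *P*-value 0.00332). All KO libraries of both genes lay below the lowest WT library.

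The mutase *Pgam2* stood at 2415, 2436, 2001 and 2492 CPM in WT, against 1397, 1058, 1166 and 1497 CPM in KO at P35 (log2 fold change -0.84 ± 0.13, SE, adjusted *P*-value 0.00119 in edgeR), and its partner *Pgam1*, whose upstream sequence was shown beside it, at 26.4, 34.1, 31.0 and 26.2 CPM in WT, against 26.2, 34.2, 34.0 and 34.4 CPM in KO (0.15 ± 0.12, adjusted *P*-value 0.315). The muscle enolase *Eno3* was at 7295, 6670, 5946 and 7154 CPM in WT, against 3825, 3118, 4072 and 4588 CPM in KO (-0.77 ± 0.14, adjusted *P*-value 0.00253). *Eno1*, the enolase of most tissues, was at 124, 121, 109 and 124 CPM in WT, against 100.1, 95.9, 131 and 123 CPM in KO (-0.06 ± 0.11, adjusted *P*-value 0.666). *Pgam2* made up 99.4% to 99.6% of its pair in WT and 98.6% to 99.2% in KO, and *Eno3* 99.4% in each WT library and 99.0% to 99.2% in KO, per kilobase. *Pkm*, the last step of the route, was not called (-0.54 ± 0.19, adjusted *P*-value 0.0449), with 3748 to 5570 CPM in WT and 2300 to 3998 CPM in KO.

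Lactate handling was represented by both subunits of lactate dehydrogenase and by 2 carriers, of which *Slc16a3* fell at P35. It was at 500, 505, 396 and 555 CPM in WT, against 261, 192, 214 and 281 CPM in KO (log2 fold change -1.02 ± 0.14, SE, adjusted *P*-value 6.07e-04 in edgeR), and KO libraries at P21 had been at 331 to 367 CPM. *Slc16a1*, which also takes lactate up into oxidative fibres, was at 72.9, 102, 117 and 128 CPM in WT, against 62.6, 71.6, 52.0 and 79.1 CPM in KO, where 1 WT library lay within the KO range (-0.64 ± 0.18, adjusted *P*-value 0.0192, not called). *Ldha*, the main subunit in fast muscle, was at 3066 to 4078 CPM in WT and 2035 to 3419 CPM in KO (-0.39 ± 0.17, adjusted *P*-value 0.0942). *Ldhb*, the subunit of heart and slow muscle, spread from 62.6 to 175 CPM in WT and from 60.8 to 209 CPM in KO (0.18 ± 0.43, adjusted *P*-value 0.766).

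Glycogen breakdown held some of the lowest log2 fold changes. *Pygm* (ENSMUSG00000032648, chr19:6384399-6398459, plus strand), muscle glycogen phosphorylase, was at 7041, 5756, 4779 and 5977 CPM in WT, against 2971, 2356, 3064 and 3319 CPM in KO at P35 (log2 fold change -0.98 ± 0.16, SE, adjusted *P*-value 0.00113 in edgeR). *Phka1* (ENSMUSG00000034055, chrX:102513975-102644246, minus strand) was at 1393, 975, 726 and 1136 CPM in WT, against 462, 322, 472 and 515 CPM in KO (-1.23 ± 0.21, adjusted *P*-value 0.00151). *Phkg1* was at 689, 581, 497 and 556 CPM in WT, against 385, 204, 319 and 366 CPM in KO (-0.84 ± 0.19, adjusted *P*-value 0.00634). None of the 3 genes overlapped between genotypes. The brain phosphorylase *Pygb* was at 11.5, 13.6, 15.2 and 14.3 CPM in WT, against 17.1, 16.2, 16.7 and 12.3 CPM in KO (0.21 ± 0.13, adjusted *P*-value 0.203), and *Pygm* made up 99.8% to 99.9% of that pair in WT and 99.5% to 99.8% in KO.

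Of the 6 genes of glycogen synthesis, 3 fell, with a median log2 fold change of -0.69 over the 6, against -0.91 over the 4 genes of glycogen breakdown. *Gys1* was at 584, 573, 646 and 674 CPM in WT, against 399.7, 439, 368 and 408 CPM in KO at P35 (log2 fold change -0.59 ± 0.09, SE, adjusted *P*-value 9.15e-04 in edgeR). *Gbe1* was at 116, 137, 191 and 178 CPM in WT, against 88.1, 100.2, 93.8 and 109 CPM in KO (-0.64 ± 0.15, adjusted *P*-value 0.00853). *Ppp1r3a* (ENSMUSG00000042717, chr6:14713977-14755274, minus strand), which brings protein phosphatase 1 to muscle glycogen, was at 599, 502, 535 and 537 CPM in WT, against 280, 228, 288 and 283 CPM in KO (-0.99 ± 0.10, adjusted *P*-value 1.43e-04, the smallest of the members). All 3 genes were separated between genotypes, *Gys1* and *Gbe1* by the narrower gaps.

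Another targeting subunit, *Ppp1r3c*, was at 845, 168, 122 and 96.2 CPM in WT, against 289, 124, 180 and 135 CPM in KO, where 1 WT library alone was high (-0.73 ± 0.65, adjusted *P*-value 0.396 in edgeR). Both genes that feed UDP-glucose to glycogen lay just outside the threshold, although their libraries did not overlap: *Pgm1* had 890 to 1358 CPM in WT and 433 to 796 CPM in KO (-0.76 ± 0.20, adjusted *P*-value 0.0134), and *Ugp2* 818 to 1082 and 482 to 725 CPM (-0.58 ± 0.14, adjusted *P*-value 0.0105). *Pgm2*, named beside *Pgm1* because the symbols of the pair have been exchanged between annotation releases, was far lower, at 3.85 to 5.13 CPM in WT and 4.04 to 5.04 CPM in KO (-0.03 ± 0.13).

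On the side branches, *Gpd1* had the lowest log2 fold change of all members at P35. It was at 1148, 1030, 884 and 1137 CPM in WT, against 412, 242, 392 and 434 CPM in KO (log2 fold change -1.48 ± 0.18, SE, adjusted *P*-value 3.17e-04 in edgeR). The KO mean was 53.7% of the WT mean at P21 and 35.2% at P35. *Fbp2* reached an adjusted *P*-value of 0.00692, but its log2 fold change of -0.47 ± 0.11 was within the fold threshold, with 31.9 to 41.7 CPM in WT and 23.3 to 29.5 CPM in KO.

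**Figure D3:**
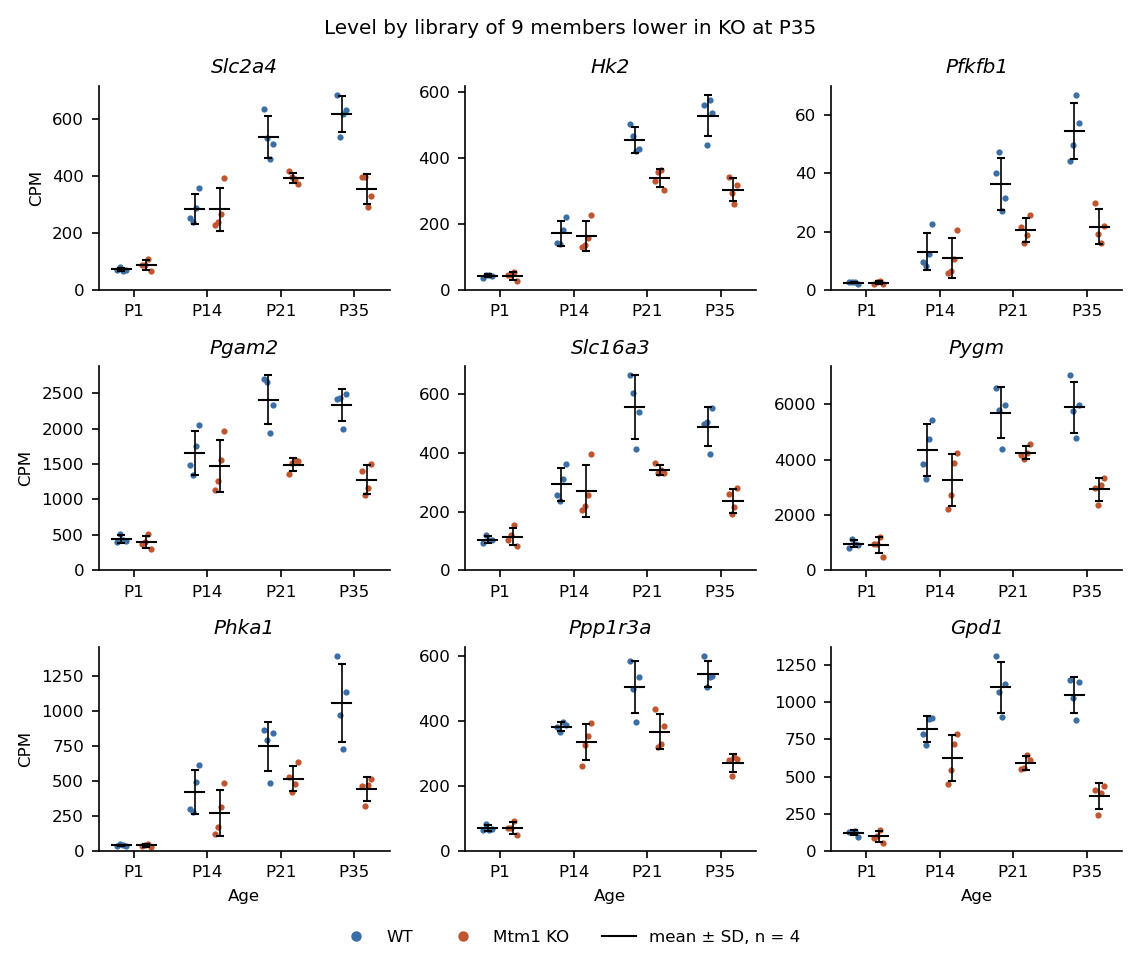
Level in CPM (vertical axes, starting at 0) at P1, P14, P21 and P35 of the 9 members that were called lower in KO at P35 in each fit that left out a library. Points are libraries and lines the mean ± SD of 4; at P35 all KO points lie below all WT points, for example 242 to 434 against 884 to 1148 CPM for Gpd1.

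**Figure D4:**
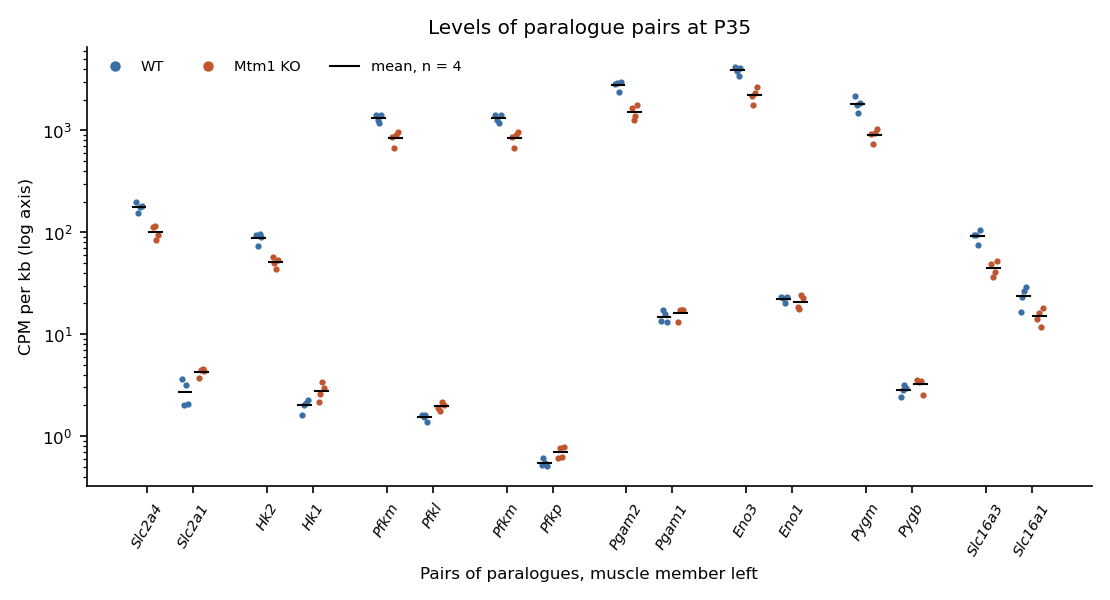
Level in CPM per kilobase (log axis) of 8 pairs of paralogues at P35, muscle form left, in 4 WT and 4 KO libraries, with the mean as a line. The means of the muscle forms lie lower in KO than in WT. Of their partners, Slc2a1 and Pfkl lie higher in KO without overlap, and Hk1, Pfkp, Pgam1, Eno1, Pygb and Slc16a1 overlap between genotypes. The means of the partners Slc16a1 (14.98 against 23.67 CPM per kb) and Eno1 (20.9 against 22.21) also lie lower in KO than in WT.

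Set against the course in WT, 18 of the 19 members that fell in KO at P35 were among the 28 that had risen in WT between P1 and P14, libraries that the P35 comparison did not use, and *Slc2a3* was the exception. Of the 19 members that were not called lower, 10 had risen. Among all genes tested in both comparisons, 71.5% of the 1163 that fell in KO at P35 and 24.1% of the other 14193 had risen in that step, so an early rise was common among fallen genes in general. The KO mean at P35 was below the WT mean at P35 for all 28 risen members. For 11 of the 19 fallen members the KO mean at P35 was also below the WT mean at P14, and for 1 member, *Slc2a3*, below the WT mean at P1. Of the 28 risen members, 15 had a KO mean at P35 below the WT mean at P14. *Gpd1* in KO at P35 was at 45.1% of the WT mean at P14, *Pgk1* at 67.3%, *Pygm* at 67.5% and *Ppp1r3a* at 70.7%. Others had a mean above the P14 mean, with *Hk2* at 178%, *Pfkfb1* at 165%, *Pfkm* at 128% and *Slc2a4* at 125% of it. These are ratios of means and were not tested. Libraries of KO P35 and WT P14 overlapped for *Pygm*, *Pfkfb1*, *Pfkm* and *Slc2a4*, but not for *Gpd1*, *Pgk1*, *Ppp1r3a* and *Hk2*. Within KO, the mean at P35 was below that at P21 for 18 of the 19 members, all except *Pfkfb1*. The 19 were picked by low values in these same KO libraries of P35, which favours such counts. Among the 28 risen members, picked without these libraries, the KO mean was lower at P35 than at P21 for 24. The step from P21 to P35 within KO was not tested. Between the means at P1 and P35 *Phkg1* rose 28.9-fold in WT and 18.6-fold in KO, *Pfkfb1* 21.8-fold and 8.70-fold, and *Hk2* 12.4-fold and 7.13-fold. TMM factors were 1.44 to 1.55 in WT and 1.46 to 1.70 in KO at P1. At P35 they were 0.73 to 0.76 in WT and 0.96 to 1.05 in KO. The size of these folds and the gap between genotypes therefore depend on the scaling, and neither was tested.

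**Figure D5:**
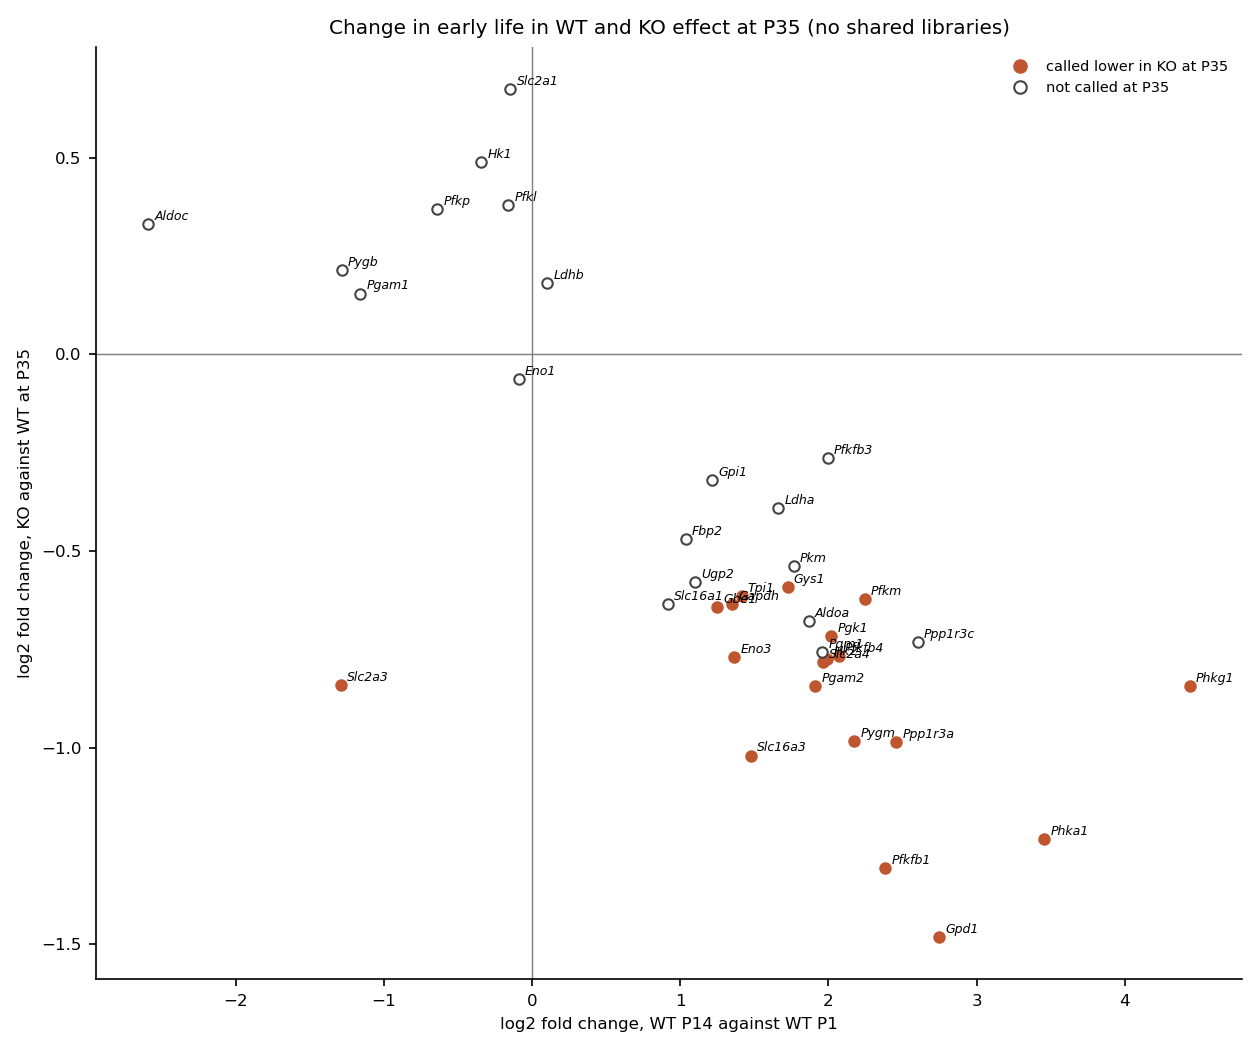
Log2 fold change between P1 and P14 in WT (horizontal axis) against the log2 fold change of KO against WT at P35 (vertical axis) for the 38 members, from comparisons with no library in common. Of the 19 filled points, called lower in KO at P35, 18 lie at the right, among genes that rose in WT, and Slc2a3 lies at the left at -1.29; of all genes lower in KO at P35, 71.5% rose in that step.

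Whether the KO effect itself differed between neighbouring ages was tested as an interaction in all 32 libraries. No member passed an adjusted *P*-value of 0.01 in edgeR between P1 and P14 (1 member in each direction at an unadjusted *P*-value under 0.05), between P14 and P21 (1 higher and 5 lower) or between P21 and P35 (0 higher and 5 lower). At the unadjusted level the shares of all genes higher and lower were 3.62% and 2.84%, 7.26% and 5.64%, and 7.79% and 9.65% in that order. Of the 18583 genes tested, 0.0108% passed with a higher and 0.00538% with a lower log2 effect at P14 than at P1. These shares were 0.377% and 0.0484% at P21 against P14, and 0.151% and 0.312% at P35 against P21. Higher and lower give the sign of the difference of log2 fold changes, not the size of the effect. A loss in KO that deepened counts as lower. The lowest adjusted *P*-value among the members was that of *Slc2a3* between P21 and P35 (difference of log2 fold changes -0.92 ± 0.24, SE, adjusted *P*-value 0.0358), which was at 1.16 to 2.003 CPM in WT and 1.51 to 1.68 CPM in KO at P21. The 19 calls at P35 and 3 calls at P21 were therefore not shown to be a change of the effect between these ages.

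Other genes of the same pathway were counted from a list of 50, of which 43 were tested at P35. There were 12 lower and 2 higher in KO, against 7.52% and 8.49% of all genes tested. The median log2 fold change was -0.19, against 0.04 for all genes tested. The 4 with the smallest adjusted *P*-values among the lower ones were *Pgm2l1*, which makes glucose 1,6-bisphosphate (log2 fold change -1.43 ± 0.08, SE), the transporter gene *Slc2a12* (-0.85 ± 0.10), *Gpd2*, the mitochondrial partner of *Gpd1* (-1.32 ± 0.17), and *Epm2a*, the glycogen phosphatase laforin (-0.65 ± 0.10). The higher ones were the neuronal enolase *Eno2* (1.52 ± 0.19), at 0.657 to 0.973 CPM in WT and 2.03 to 2.85 CPM in KO, and *Pgm5* (0.98 ± 0.18). At P21 the list had 2 lower and 1 higher, against 1.5% and 3.18% of all genes tested.

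Entry of pyruvate into mitochondria was covered by 14 genes, of which 9 fell in KO at P35 and 0 rose, with a median log2 fold change of -0.68. Over all genes tested 7.52% fell and 8.49% rose, with a median of 0.04. At P21, 3 of the 14 fell, against 1.5% of all genes tested. Subunits of the pyruvate dehydrogenase complex had the smallest adjusted *P*-values at P35: *Dld* (-0.85 ± 0.09, SE), *Dlat* (-0.90 ± 0.10), *Pdha1* (-0.97 ± 0.11) and *Pdhx* (-0.82 ± 0.10). *Pdha1* was at 1299 to 1697 CPM in WT and 669 to 811 CPM in KO. Of 16 genes of transporter traffic and insulin signalling, 2 fell and 2 rose at P35, against 7.52% and 8.49% of all genes tested. *Tbc1d1*, a brake on GLUT4 vesicles, was at 164 to 307 CPM in WT and 52.1 to 93.7 CPM in KO (-1.45 ± 0.22), and its effect at P35 differed from that at P21 in edgeR (difference -1.55, adjusted *P*-value 0.00228). The insulin receptor *Insr* fell by 0.61 ± 0.12 on the log2 scale, whereas *Rab13* (1.89 ± 0.20) and the fusion protein gene *Stx4a* (0.67 ± 0.12) rose.

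Regulators of the pathway numbered 22, of which 6 fell and 3 rose at P35, against 7.52% and 8.49% of all genes tested. The coactivator *Ppargc1a*, which drives mitochondrial genes and *Slc2a4*, was at 52.0 to 66.6 CPM in WT and 22.6 to 27.4 CPM in KO (log2 fold change -1.15 ± 0.10, SE). *Mlxip*, a glucose-sensing transcription factor (-0.84 ± 0.08), *Prkaa2*, the catalytic AMPK subunit of muscle (-0.82 ± 0.09), and the hypoxia factor *Epas1* (-1.17 ± 0.14) fell as well. *Egln3*, a prolyl hydroxylase of hypoxia signalling, rose from 21.6 to 51.4 CPM in WT to 119 to 182 CPM in KO (2.07 ± 0.28), and *Mef2c* (0.61 ± 0.11) and *Myc* (0.86 ± 0.20) rose. The median of the list was -0.28, against 0.04 for all genes tested.

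Markers of fibre types and other cells moved at the same age, when 7.52% of all genes tested fell and 8.49% rose. All 10 fast fibre genes had a log2 fold change below 0 at P35, with a median of -0.55, but 1 was called, *Mybpc2* (-1.20 ± 0.23, SE). Their summed level was 124400 to 190800 CPM in WT and 77430 to 117700 CPM in KO. Of 8 slow fibre genes 6 rose, with a median of 4.26 and a sum of 172 to 372 CPM in WT and 1118 to 2696 CPM in KO. The 6 skeletal muscle markers summed to 61220 to 76630 CPM in WT and 40400 to 49000 CPM in KO, with *Acta1* lower (-0.76 ± 0.17) and *Des* higher (0.78 ± 0.12). Embryonic and neonatal fibre genes had 3 of 4 higher and 1 lower (sum 2181 to 2755 against 242 to 746 CPM), satellite cell genes 2 of 4 lower (23.8 to 39.0 against 12.1 to 26.9 CPM) and cartilage genes 1 of the 3 tested higher (6.36 to 13.4 against 13.4 to 147 CPM). Adipocyte genes had 3 of 6 higher (median 2.59, sum 239 to 380 against 372 to 509 CPM), macrophage genes 2 of 6 higher (60.9 to 80.4 against 65.8 to 88.9 CPM), and endothelial genes 2 of 6 lower (318 to 599 against 285 to 357 CPM). None of the 5 Schwann cell genes was called in edgeR (median 1.51, sum 87.2 to 547 against 292 to 1176 CPM). Erythroid genes had no call among the 5 tested of 7 (median -0.56, sum 190 to 584 against 222 to 434 CPM). Mitochondrially encoded genes took 12.4% to 17.9% of counts in WT and 10.3% to 10.5% in KO at P35. The part of these shifts in the results for glycolysis and glycogen genes was not tested.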

How the data were processed

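RNA of 32 muscle libraries was analysed, 4 for each of 8 groups named by genotype and age in the labels. The authors aligned paired reads to GRCm38 with STAR 2.6.1 and deposited expected counts per gene made with RSEM 1.2.22, per the labels, without scaling or pooling. The methods name HTSeq as counter, and the annotation release and the use of strand in counting are not given in the sources used here. Of the values, 4.26% were not whole, because RSEM splits multi-mapping reads, and they were rounded. Symbols and coordinates were taken from GENCODE M21. A second gene with the symbol *Aldoa* (at most 69 counts) was not used.

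KO was compared with WT within each age, and neighbouring ages within WT, with the two-sided quasi-likelihood test of edgeR 4.0.16 in R 4.3.3, after filterByExpr and TMM scaling. *P*-values were adjusted across the tested genes by Benjamini-Hochberg. Genes were called at an adjusted *P*-value below 0.01 if they also changed more than 1.5-fold. Interactions used 1 fit of all 32 libraries and no fold threshold. The fits were tested on simulated data. Alternatives were DESeq2 1.42.0, RLE factors, library totals, no filter, TMM without mitochondrially encoded genes, calls at an adjusted *P*-value of 0.05, calls by both tools, a joint fit of all libraries, a block for replicate number, leaving out each library, and for paralogue shares the longest transcript or no length. The numbers were taken to pair libraries at P14 only, where all 4 correlations of same-numbered deviations, 0.19 to 0.59, were above 0.1. The labels do not say that same-numbered libraries are pairs, so this pairing rests on the counts themselves. Depth was 49321035 to 85631408 counts per library. Labels do not say that libraries came from separate mice, so *P*-values measure the spread between samples.

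The members and lists were chosen with earlier results of these data known. All 38 members are described. Other genes are named if on a list and called, at most 4 per list and direction without overlap of genotypes, chosen by adjusted *P*-value, plus *Mtm1* and *Pgm2*. Motif and figure work used python 3.11.15.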

Additional observations from a re-analysis of the deposited data

Results flagged for a closer look

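In each group of 4 libraries, a value was picked out where the gap of the highest or lowest library to the next exceeded Dixon's 95% limit. If sets of 4 were independent, chance alone would give about 1 in 20, but members share their libraries. The limit was exceeded in 20 of 304 sets of 4 libraries (38 members in 8 groups). Of these, 6 were in WT P1 replicate 2, the highest library for *Pgk1* (501.7 CPM against 401.9 to 410.8 in the others), *Pgam2* (518.7 against 404.3 to 421.7), *Eno3* (2123 against 1647 to 1685), *Ldha* (915.9 against 766.1 to 779.8), *Gbe1* (33.37 against 26.19 to 26.88) and *Ugp2* (277.7 against 223.0 to 225.8). WT P35 replicate 3 was the lowest library for *Tpi1* (2618 against 3226 to 3351 CPM), *Pgam2* (2001 against 2415 to 2492) and *Ldha* (3066 against 3970 to 4078). WT P21 replicate 3 was the lowest for *Eno1* (179.5 against 202.0 to 205.0 CPM) and *Pgm1* (769.2 against 1065 to 1111).

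*Ppp1r3c* in WT P35 replicate 1 was at 844.6 CPM against 96.21 to 167.6 CPM in the others. WT P14 replicate 4 was highest for *Ldhb* (90.93 against 64.46 to 66.98 CPM). Among the KO libraries, P1 replicate 4 was lowest for *Hk1* (22.07 against 29.76 to 30.01 CPM) and P1 replicate 3 highest for *Ugp2* (292.0 against 222.9 to 233.9). At P21, replicate 4 was highest for *Aldoa* (14170 against 12290 to 12400 CPM), replicate 1 lowest for *Pgam2* (1358 against 1518 to 1551) and replicate 3 lowest for *Gys1* (453.0 against 531.0 to 536.9). At P35, replicate 1 was lowest for *Pgam1* (26.25 against 33.97 to 34.39 CPM) and replicate 2 lowest for *Ppp1r3a* (228.4 against 279.6 to 287.8).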

How the results depend on the processing

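Over the alternatives, 988 of 1105 recomputed values of single members kept their direction and their side of the threshold, 117 lost the call, and no called value changed sign. This total pools unlike comparisons, and the looser rule of an adjusted *P*-value under 0.05 could not lose a call. Leaving out a library kept 263 calls and lost 1 for WT P14 against P1. It kept 106 and lost 46 for KO against WT at P35, and kept 13 and lost 11 at P21. Shares of paralogues moved by more than 1 SD in 102 of 160 cases when lengths were those of the longest transcript or left out. The count of called members moved by more than 1.5 times in the following cases. With DESeq2 it was 1 for KO against WT at P1, 17 for WT P21 against P14 and 3 for WT P35 against P21. With an adjusted *P*-value under 0.05 and no fold threshold it was 17 at P21 (16 lower, 1 higher), 29 at P35 (25 lower, 4 higher), 20 for WT P21 against P14 and 4 for WT P35 against P21, and 1 for the interaction between P21 and P35. Library totals gave 10 at P35 (5 lower, 5 higher), and 1 fit of all libraries 3 for WT P35 against P21. With the replicate number as a block the count was 1 at P14, where the numbers were taken to pair the libraries. It was 3 for WT P21 against P14, where they share only a number. The block changed no other count by that much, with 15 at P35 and 2 at P21. Leaving out each library gave 1 to 8 calls at P21, 10 to 19 at P35 and 5 to 14 for WT P21 against P14. The cause was not tested, other than that these fits hold fewer samples. At this depth, members at 1 CPM or less, such as *Aldoc* from P14 on, rest on few counts.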
